A study of Mus musculus with 6 samples.

Results

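The lysosome and autophagy genes described here are 44 mouse genes of the route by which AMP-activated protein kinase (AMPK) acts on autophagy and lysosomes. They were taken by symbol from a fixed list of genes for autophagosome formation, the factors that control lysosome genes, the lysosomal membrane and the lysosomal lumen. All 44 were in the table of 18099 genes, and all 44 passed the filter on low counts, so that none had to be left out. RNA was sequenced from the repair tissue of neonatal mice a week after the Achilles tendon was cut across in both legs. The 3 *LysM-Cre; Ampkα1 fl/fl* mice had loxP-flanked (floxed) *Ampkα1* alleles and Cre recombinase expressed from *Lyz2*, the lysozyme M gene, which removes *Ampkα1* in myeloid cells such as macrophages and neutrophils. They are called LysM-Cre mice below. The 3 control mice were littermates with the floxed *Ampkα1* alleles and no Cre, and both groups had the same operation. RNA came from the whole repair tissue, in which Cre is active in only a part of the cells, and the sources used here do not say whether both legs of a mouse were pooled. Only the LysM-Cre mice carried Cre.

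Autophagy encloses cell contents in a double membrane, the autophagosome, which then fuses with the lysosome, an acidic compartment full of hydrolases. AMPK senses low cellular energy and phosphorylates ULK1, the kinase that starts autophagosome formation, and it opposes mTORC1, the nutrient-sensing kinase complex that keeps ULK1 and the transcription factors TFEB and TFE3 inactive. Freed from mTORC1, TFEB and TFE3 enter the nucleus and switch on genes for lysosomal enzymes, the proton pump and autophagy. Macrophages, which clear dead cells and debris after injury, are rich in lysosomes. Much of this control acts on proteins through phosphorylation, which RNA levels do not measure. The comparison below asks how far the RNA of these genes in the injured tendon differed when *Ampkα1* was deleted in myeloid cells.

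The libraries held between 18076805 and 19479887 estimated reads that fell on annotated transcripts, and levels are given as CPM, read counts scaled to the library total with the TMM method of edgeR. The targeted gene *Prkaa1*, which encodes AMPKα1, had 39.2, 37.6 and 37.8 CPM in control mice 1 to 3 and 32.6, 40.6 and 35.2 CPM in LysM-Cre mice 1 to 3, and the groups overlapped (log2 fold change -0.079, standard error, SE, 0.088, edgeR adjusted p = 0.744). Its RNA in whole tissue therefore does not check the deletion. *Lyz2*, the gene that carries the Cre, encodes lysozyme M, itself a hydrolase of lysosomes and granules. It had 390.4, 425 and 404 CPM in the controls and 0.469, 0.811 and 0.432 CPM in the LysM-Cre mice (log2 fold change -9.46, edgeR adjusted p = 3.41e-06), so each library matched its label at this locus. Lower lysozyme M RNA, the presence of Cre and the loss of *Ampkα1* cannot be told apart here. Of 14261 genes tested, 128 passed the threshold of an adjusted p of 0.05 (edgeR quasi-likelihood test, Benjamini-Hochberg adjustment over all genes), 47 of them higher and 81 lower in the LysM-Cre group.

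None of the 44 lysosome and autophagy genes passed the threshold, beside 0.898% of all genes tested. The smallest adjusted p among them was 0.140, for *Map1lc3b* (edgeR). At an unadjusted p under 0.05, edgeR gave 5 genes that were higher in the LysM-Cre group, *Ctsd*, *Sqstm1*, *Wipi1*, *Map1lc3b* and *Atg4b* (11.4%, beside 5.97% of all genes tested that were higher at this limit), and 1 that was lower, *Ctsc* (beside 8.55%). These 6 genes are 13.6% of the 44, close to the 14.5% of all genes tested that reach the limit in either direction. In the DESeq2 fit, 2 of the 44 passed an adjusted p of 0.05, *Map1lc3b* (adjusted p = 0.0290) and *Ctsd* (adjusted p = 0.0306), beside 4.68% of the genes that DESeq2 could test. No member was called in the fit with the replicate number as a block, beside 0.33% of all genes. At an unadjusted p under 0.05, that fit gave 8 of the 44 as higher, beside 7.64% of all genes tested that were higher. In either direction it gave 9 of the 44, with *Ctsc* lower, beside 2274 of 14261 genes tested.

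The differences were small. The 95% intervals of all 44 log2 fold changes lay within 1 in either direction, and those of 38 lay within 0.5, which corresponds to the precision that 3 mice a group gave for these genes. The widest interval, from -0.37 to 0.96, belonged to *Gpnmb*. The log2 fold change was above 0 for 34 genes (77.3%) and below 0 for 10, beside 49.4% above 0 over all genes tested. The median was 0.12, beside -0.0020 over all genes tested, and without LysM-Cre mouse 1 the median of the 44 was 0.048. The plot of fold changes with their intervals shows most points a little to the right of 0, with intervals that cross it.

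**Figure D1:**
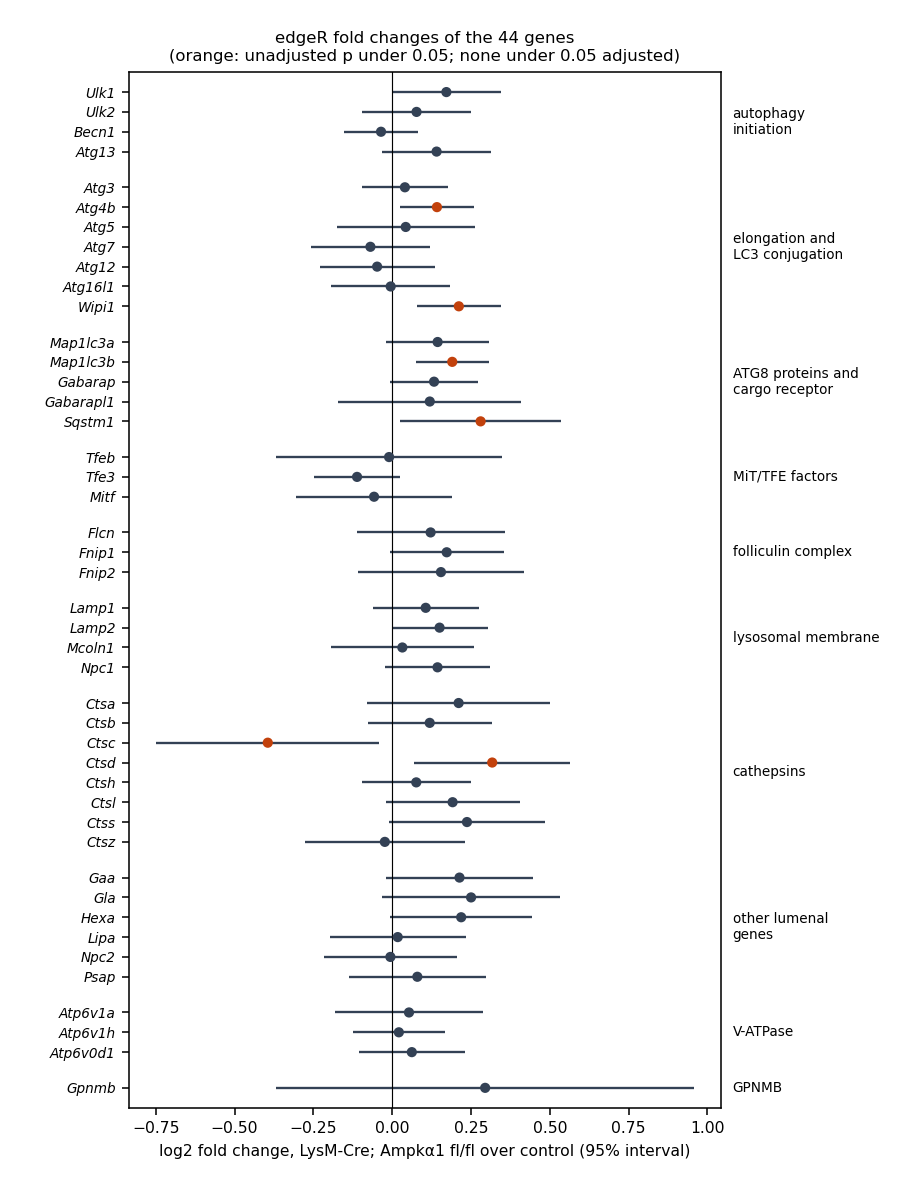
The log2 fold change of each of the 44 genes, LysM-Cre; Ampkα1 fl/fl over control, with its 95% interval from edgeR (n = 3 mice a group), in role groups named at the right. The 6 orange points had an unadjusted p under 0.05; most points lie between 0 and 0.3, the lowest is Ctsc at -0.39 and the highest is Ctsd at 0.32.

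Among the genes that start autophagy, *Ulk1*, which encodes the kinase that AMPK phosphorylates, had 61.96, 57.7 and 60.3 CPM in the control mice and 71.8, 61.3 and 69.7 CPM in the LysM-Cre mice. Mice 1 and 3 of the LysM-Cre group lay above all controls, and mouse 2 lay within the control range. The log2 fold change of *Ulk1* was 0.17 (SE 0.073, edgeR adjusted p = 0.345). *Becn1*, which encodes Beclin 1 of the lipid kinase complex that marks the forming membrane, was at the other end of these 4 genes, with 62.7, 59.99 and 63.7 CPM in the controls and 61.2, 59.2 and 61.5 CPM in the LysM-Cre group, ranges that overlapped (log2 fold change -0.035, 95% interval -0.15 to 0.083). *Ulk2*, which encodes a second kinase of the ULK family, and *Atg13*, whose protein holds the ULK1 complex together, had log2 fold changes of 0.077 and 0.14, also with overlapping groups.

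The 7 genes of autophagosome elongation and LC3 conjugation fell on both sides of 0. *Wipi1* (GRCm38.p6, chr11:109573521-109611389), which encodes a phosphoinositide-binding protein of the growing membrane, had 70.7, 69.6 and 64.4 CPM in the controls and 81.5, 78.7 and 76.9 CPM in the LysM-Cre mice. The 3 mice of the LysM-Cre group lay above the 3 controls and close to each other. The means were 68.2 ± 3.35 and 79.02 ± 2.29 CPM (SD, n = 3), and the log2 fold change was 0.21 (SE 0.056, edgeR adjusted p = 0.153). *Atg4b* (chr1:93754905-93789606) encodes the protease that prepares LC3 for its lipid anchor and later removes it. It had 41.9, 42.1 and 41.8 CPM in the controls and 47.3, 46.3 and 45.2 CPM in the LysM-Cre group, again without overlap, at a log2 fold change of 0.14 (SE 0.050, edgeR adjusted p = 0.252). *Atg7*, which encodes the E1-like enzyme that activates LC3 and ATG12, was the lowest of the group, with 21.01, 20.1 and 19.1 CPM in the controls and 20.03, 19.4 and 17.9 CPM in the LysM-Cre mice (log2 fold change -0.069, 95% interval -0.26 to 0.12). *Atg3*, *Atg5*, *Atg12* and *Atg16l1*, the other parts of the conjugation machinery, lay between -0.048 for *Atg12* and 0.043 for *Atg5*, and the groups overlapped for each. The factors for LC3 conjugation thus showed values on both sides of 0, with *Atg4b* and *Wipi1* the pair whose groups were apart.

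All 5 genes for ATG8 proteins and the cargo receptor had log2 fold changes above 0. *Map1lc3b* (chr8:121590438-121598760) encodes LC3B, the protein that coats autophagosomes and is used to count them. It had 139, 137 and 141 CPM in the controls and 159.8, 153 and 162 CPM in the LysM-Cre mice. The groups did not overlap, and the spread within each was small (139 ± 2.19 and 158 ± 4.59 CPM, SD, n = 3). Its log2 fold change was 0.19 (SE 0.049, edgeR adjusted p = 0.140), a fold of 1.14. *Sqstm1* (chr11:50200152-50210820), which encodes p62, the receptor that ties ubiquitin-marked cargo to LC3 and is itself degraded by autophagy, had 200.3, 193 and 206 CPM in the controls and 273, 203 and 252 CPM in the LysM-Cre mice. Mice 1 and 3 were above every control, whereas mouse 2 lay within the control range. The log2 fold change of *Sqstm1* was 0.28 (SE 0.11, edgeR adjusted p = 0.298), and without mouse 2 it was 0.39 (edgeR adjusted p = 0.049). That fit without LysM-Cre mouse 2 called 276 of 14425 genes tested. No other member was called when a mouse was left out. *Gabarapl1*, which encodes a relative of LC3, was the lowest of the 5, with 65.7, 67.6 and 61.4 CPM in the controls and 84.2, 60.2 and 67.1 CPM in the LysM-Cre group. Only mouse 1 stood above the controls, and mouse 2 lay below them (log2 fold change 0.12, SE 0.12, edgeR adjusted p = 0.717). *Gabarap* and *Map1lc3a* had log2 fold changes of 0.13 and 0.14, and only for *Gabarap* did the groups not overlap. The reads of *Gabarap* were divided equally over 2 copies of the same transcript in the table and were summed here.

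**Figure D2:**
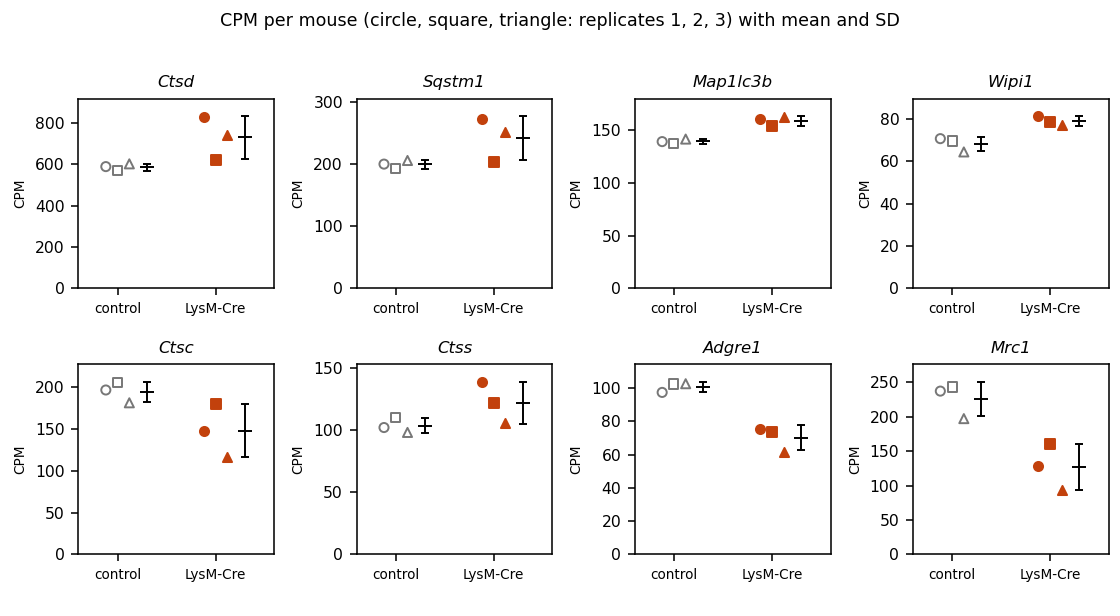
CPM in each mouse for 6 of the lysosome and autophagy genes and for the macrophage markers Adgre1 and Mrc1, with a linear axis from 0; circles, squares and triangles are mice 1, 2 and 3 of each group, and the black bar with whiskers is the mean ± SD (n = 3). The groups do not overlap for Ctsd, Map1lc3b, Wipi1, Ctsc, Adgre1 and Mrc1, and overlap for Sqstm1 and Ctss.

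The MiT/TFE transcription factors were the role group in which every log2 fold change was below 0. *Tfeb*, the factor best known as the switch for lysosome genes, had 22.4, 24.8 and 24.9 CPM in the controls and 26.4, 18.3 and 26.9 CPM in the LysM-Cre mice. Mice 1 and 3 were above all controls and mouse 2 was the lowest of the 6 (log2 fold change -0.0097, SE 0.15, 95% interval -0.37 to 0.35), and without mouse 2 the log2 fold change was 0.15. *Tfe3*, which encodes a close relative, had 55.3, 54.8 and 53.3 CPM in the controls and 52.5, 51.5 and 47.3 CPM in the LysM-Cre mice. The 3 LysM-Cre mice lay below the 3 controls, by a log2 fold change of -0.11 (SE 0.058, edgeR adjusted p = 0.439). *Mitf*, another member of the family with roles in pigment cells and osteoclasts, had 12.01, 13.4 and 13.8 CPM in the controls and 13.4, 12.8 and 11.5 CPM in the LysM-Cre group, which overlapped (log2 fold change -0.057, SE 0.10). With a macrophage marker score as a covariate, the values of *Tfe3* and *Mitf* were 0.015 and 0.12.

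The folliculin complex, through which AMPK and nutrients act on TFEB and TFE3 at the lysosome surface, had log2 fold changes above 0 for all 3 genes. *Fnip1*, whose protein is a folliculin partner and a substrate of AMPK, had 63.7, 59.4 and 65.5 CPM in the controls and 73.1, 64.2 and 75.3 CPM in the LysM-Cre mice. Mice 1 and 3 were above the controls and mouse 2 was within their range (log2 fold change 0.17, SE 0.076, edgeR adjusted p = 0.361). *Flcn*, which encodes folliculin itself, had 46.03, 42.2 and 49.9 CPM in the controls and 52.9, 43.97 and 53.5 CPM in the LysM-Cre group, with the same order of mice within the LysM-Cre group (log2 fold change 0.12, 95% interval -0.11 to 0.36). *Fnip2*, for the other partner, had a log2 fold change of 0.15 with overlapping groups.

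MiT/TFE factors bind the letters TCACGTGA, which many lysosome genes carry near their start. This motif reads the same on both strands, so a match counts on either, and each match is also a match to its shorter core, CACGTG. It was searched in RefSeq promoter windows of GRCm38.p6 that run from 250 bases before to 50 bases after a transcript start. Windows were held for 36 of the 44 genes, and 7 of the 36 (19.4%) had the motif in a window, beside 1.12% of all 27025 genes with a window. Counted over windows, these were 7 of 43 (16.3%), beside 0.974% of all 32851 windows. The core was in a window of 13 of the 36 genes (36.1%), beside 8.09% of all genes. Among 127 other genes of autophagy, lysosomes and their control, described below, 103 had a window. The motif was in a window of 6 of these 103 genes (5.83%), and the core in a window of 23 (22.3%). The 44 genes were listed with the MiT/TFE factors in view, so these shares are a description and not a test. The sites below are shown because they are the places in the members' promoters where this family of factors could bind by sequence. Each is printed 5′ to 3′ on the strand of its gene with 10 bases on either side, and the capitals mark the motif.
Ctsd, chr7:142387909-142387936, minus strand: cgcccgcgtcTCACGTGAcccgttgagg
Gla, chrX:134601216-134601243, minus strand: aagcgattgaTCACGTGAgcatctacgt
Gla, chrX:134601183-134601210, minus strand: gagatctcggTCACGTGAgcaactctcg
Ctsa, chr2:164833750-164833777, plus strand: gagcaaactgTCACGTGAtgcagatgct
Ctsa, chr2:164833767-164833794, plus strand: atgcagatgcTCACGTGAccagagctac
Mcoln1, chr8:3500463-3500490, plus strand: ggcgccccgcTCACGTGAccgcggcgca
Atp6v0d1, chr8:105566051-105566078, minus strand: cctactgcggTCACGTGAgacgcggtgc
Atp6v1a, chr16:44139374-44139401, minus strand: tttttttaaaTCACGTGAtaggcttaac
Atg3, chr16:45158747-45158774, plus strand: gagagtcgagTCACGTGAggccttaggt
The first base of the motif lay 99 bases before the start in *Ctsd*, 46 before it in *Mcoln1* and 72 before it in *Atg3*. For *Ctsa* and *Atp6v1a* the window belongs to a start inside the gene's whole span, and 1 of the *Ctsa* sites begins at base 5 of that transcript. *Gla* and *Ctsa* each held 2 sites. The log2 fold changes of the 7 genes with the motif ran from 0.032 for *Mcoln1* to 0.32 for *Ctsd*, with a median of 0.062, and those of the 29 genes with a window and no such match had a median of 0.13. A match is a description of these windows and does not show binding.

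The lysosomal membrane genes were all slightly above 0. *Lamp1*, which encodes a main glycoprotein of the lysosomal membrane, had 565, 576 and 606 CPM in the controls and 676, 583 and 622 CPM in the LysM-Cre mice. Mouse 2 was within the control range and mice 1 and 3 were above it (log2 fold change 0.11, SE 0.071, edgeR adjusted p = 0.549), and without mouse 1 the log2 fold change was 0.049. *Lamp2*, for the related glycoprotein needed for fusion with autophagosomes, was the highest of the 4, with 399.6, 408 and 392 CPM in the controls and 465, 410.3 and 455 CPM in the LysM-Cre group. Its groups did not overlap, although mouse 2 lay just above the highest control (log2 fold change 0.15, SE 0.064, edgeR adjusted p = 0.348). *Mcoln1*, which encodes the calcium channel TRPML1, was the lowest, with 21.2, 24.6 and 23.96 CPM in the controls and 25.9, 21.7 and 23.7 CPM in the LysM-Cre mice, and the groups overlapped (log2 fold change 0.032, 95% interval -0.20 to 0.26). *Npc1*, whose protein exports cholesterol from the lysosome, had a log2 fold change of 0.14 with overlapping groups.

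The cathepsins, the lysosomal proteases, held the highest and the lowest log2 fold change of the 44 genes. *Ctsd* (chr7:142375910-142387827), which encodes the aspartic protease cathepsin D, had 589, 568 and 602 CPM in the controls and 829.8, 623 and 739.7 CPM in the LysM-Cre mice. The LysM-Cre mice were all above the controls but spread widely, with mouse 2 close to the highest control. The means were 587 ± 17.2 and 731 ± 104 CPM (SD, n = 3), a fold of 1.25 and a log2 fold change of 0.32 (SE 0.10, edgeR adjusted p = 0.224). *Ctsc* (chr7:88278024-88315861), which encodes cathepsin C, the protease that activates the serine proteases of myeloid and cytotoxic granules, had 197, 205 and 181 CPM in the controls and 148, 179 and 117 CPM in the LysM-Cre mice. Here the 3 LysM-Cre mice lay below the controls, with mouse 2 the nearest to them and mouse 3 the farthest. The means were 194 ± 12.1 and 148 ± 31.4 CPM (SD, n = 3), and the log2 fold change was -0.39 (SE 0.15, edgeR adjusted p = 0.291). It was -0.25 without mouse 3 and -0.56 without mouse 2, and not called in either case. The other 6 cathepsin genes lay between -0.023 for *Ctsz* and 0.24 for *Ctss*, and their groups overlapped. In a whole-tissue library, fewer cells that express a gene and less RNA of it per cell cannot be told apart.

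The other genes of the lysosomal lumen encode enzymes for glycogen (*Gaa*), glycolipids (*Gla*, *Hexa*) and lipid esters (*Lipa*), the helper protein prosaposin (*Psap*) and the cholesterol carrier *Npc2*. *Gla* had the highest log2 fold change, with 10, 11.04 and 10.3 CPM in the controls and 14.2, 11.2 and 11.8 CPM in the LysM-Cre mice. The groups did not overlap, but mouse 2 lay only just above the highest control (log2 fold change 0.25, SE 0.12, edgeR adjusted p = 0.400). Without mouse 1 the log2 fold change of *Gla* was 0.14. *Npc2* had the lowest, with 246, 239 and 229 CPM in the controls and 266, 212 and 233 CPM in the LysM-Cre group, where mouse 1 was above and mouse 2 below all controls (log2 fold change -0.0055, 95% interval -0.22 to 0.21). *Hexa*, *Gaa*, *Psap* and *Lipa* had log2 fold changes of 0.22, 0.21, 0.080 and 0.018, with overlapping groups.

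The 3 subunits of the V-ATPase, the pump that acidifies the lysosome, had log2 fold changes near 0. *Atp6v0d1* was the highest, with 108, 117 and 99.7 CPM in the controls and 117, 109 and 112 CPM in the LysM-Cre mice (log2 fold change 0.062, 95% interval -0.11 to 0.23). *Atp6v1h* was the lowest, with 43.5, 39.2 and 42.7 CPM in the controls and 43.4, 41.5 and 42.3 CPM in the LysM-Cre mice (log2 fold change 0.021, 95% interval -0.12 to 0.17). The groups overlapped for both and for *Atp6v1a*. *Gpnmb*, which encodes a membrane glycoprotein of lysosome-rich macrophages and pigment cells and is a known target of the MiT/TFE factors, was the most variable member. It had 48.3, 74.7 and 43.6 CPM in the controls and 93.8, 51.97 and 58.5 CPM in the LysM-Cre mice. The highest value was in LysM-Cre mouse 1 and the next in control 2, so the groups overlapped (log2 fold change 0.30, SE 0.28, edgeR adjusted p = 0.689). Without LysM-Cre mouse 1 the log2 fold change of *Gpnmb* was -0.0067.

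Non-overlapping groups were found for 9 of the 44 genes (20.5%), in either direction. Over all genes tested, 8.94% were apart with the LysM-Cre mice higher and another 11.4% with them lower. In 7 of them, *Atg4b*, *Wipi1*, *Map1lc3b*, *Gabarap*, *Lamp2*, *Ctsd* and *Gla*, the LysM-Cre mice were the higher ones (15.9%, beside 8.94% of all genes tested). In 2, *Tfe3* and *Ctsc*, they were the lower ones (4.55%, beside 11.4%). An exact permutation test of 3 mice against 3 cannot give a two-sided p below 0.1, the value these 9 genes had.

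The 3 LysM-Cre mice differed from each other in the level of these genes. LysM-Cre mouse 1 was the highest of the 6 libraries for 28 of the 44 genes (63.6%, beside 17.0% of all genes tested) and the lowest for 0. It was above all 3 controls for 33 of the 44 (75%, beside 29.3% of all genes), mouse 3 for 24 (54.5%, beside 31.5%) and mouse 2 for 9 (20.5%, beside 25.9%). Mouse 2 was below all controls for 12 of the 44, beside 29.5% of all genes. Within the LysM-Cre group, 25 of the 44 genes (56.8%, beside 17.3% of all genes) had the order mouse 1 over mouse 3 over mouse 2. Among the 14 cathepsin and other lumenal genes, mouse 1 was the highest of all libraries for 13, every one except *Ctsc*, and 12 of the 14 had that order. The members took 0.803% to 0.806% of the reads in the controls and 0.947%, 0.811% and 0.853% in LysM-Cre mice 1, 2 and 3, so that mouse 2 was close to the controls.

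**Figure D3:**
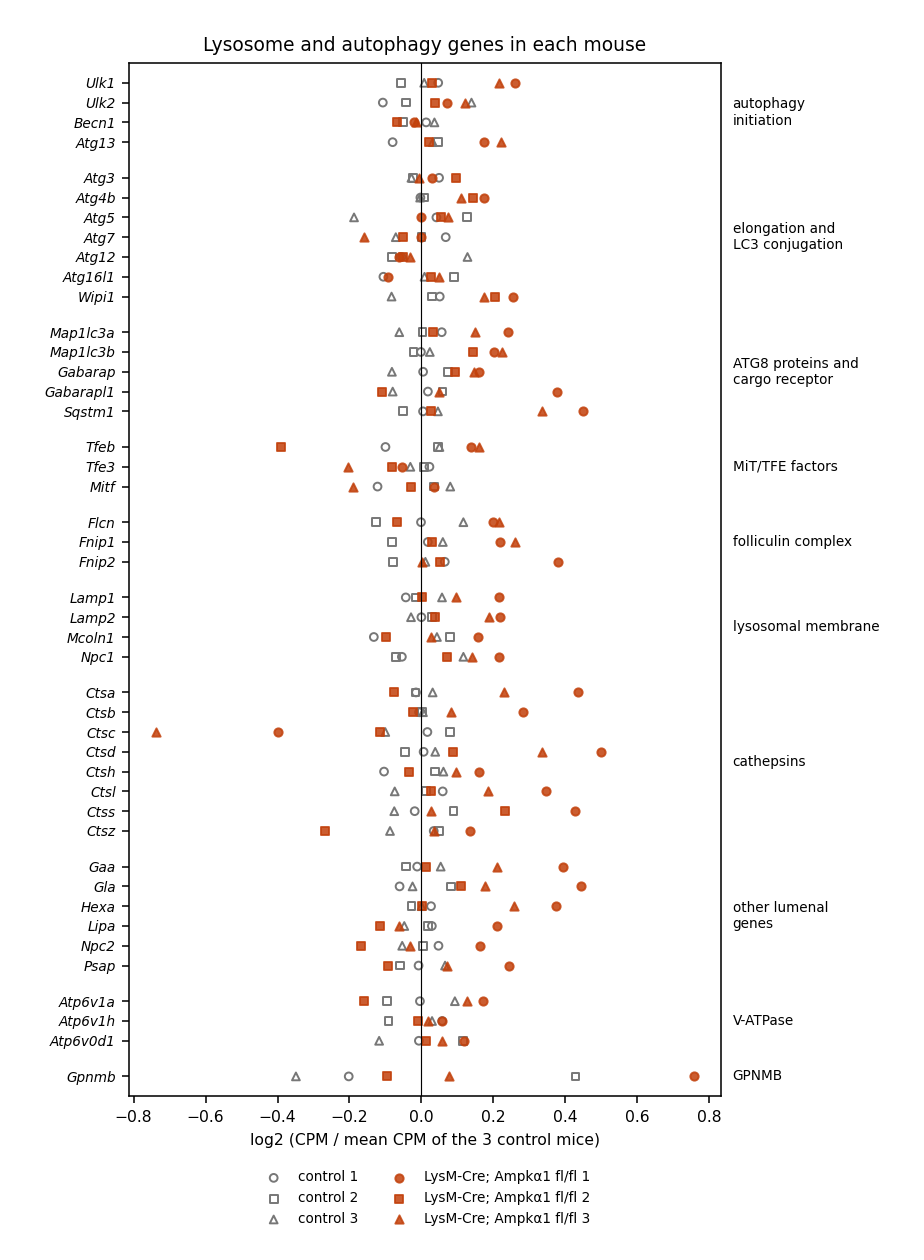
The level of each of the 44 genes in each mouse as the log2 ratio of its CPM to the mean CPM of the 3 control mice, with open grey symbols for controls, filled orange symbols for LysM-Cre mice, and circles, squares and triangles for mice 1, 2 and 3. The orange circles (mouse 1) are the rightmost point in 28 of the 44 rows, the orange squares (mouse 2) mostly lie among the controls, and in the Ctsc row the orange circle and triangle lie to the left of the controls, with the square close to them.

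Markers of other cell types also differed between these libraries. The summed level of 12 skeletal muscle markers was 190, 602 and 3269 CPM in the controls and 3483, 1091 and 9582 CPM in the LysM-Cre mice, which overlapped, and all 12 had log2 fold changes above 0. edgeR and DESeq2 called 0 of them, and 0 were at an unadjusted p under 0.05 in edgeR. The sum was higher in the LysM-Cre mouse than in the control of the same number each time. In the blocked fit 11 of the 12 were higher at an unadjusted p under 0.05 (beside 7.64% of all genes tested), with 0 called. No source used here shows that mice of the same number form pairs, so the blocked values rest on an unknown pairing. The muscle level had the order mouse 3 over mouse 1 over mouse 2 in the LysM-Cre group. It also differed widely between the controls. With the muscle score as a covariate, the median log2 fold change of the 44 genes was 0.084, that of *Ctsd* was 0.23 and that of *Sqstm1* was 0.17, while *Wipi1* and *Map1lc3b* had 0.26 and 0.16. Whether muscle RNA has a part in the differences between the mice was not tested further.

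Of 13 macrophage markers, 11 had log2 fold changes below 0. For 8 of the 13, the LysM-Cre mice lay below all controls (61.5%, beside 11.4% of all genes tested). *Mertk* and *Fcgr1* were above 0, at 0.21 and 0.11, and for *Mertk* the LysM-Cre mice lay above all controls. The summed level of the 13 markers was 1161 to 1217 CPM in the controls and 923, 962 and 728 CPM in the LysM-Cre mice. In edgeR 0 of the 13 passed the threshold. At an unadjusted p under 0.05, edgeR gave 8 lower (61.5%, beside 8.55% of all genes tested) and 1 higher, *Mertk* (beside 5.97%). DESeq2 called 4 of the 13 (30.8%, beside 4.68% of the genes it could test). *Adgre1*, which encodes the macrophage surface protein F4/80, had 97.4, 102 and 103 CPM in the controls and 75.3, 73.9 and 61.5 CPM in the LysM-Cre mice (log2 fold change -0.52, edgeR adjusted p = 0.0508). Within the LysM-Cre group, *Ctsc* and the summed macrophage level were both highest in mouse 2 and lowest in mouse 3. The share of all genes with that order was not computed, and whether the 2 are linked was not tested. With the macrophage score as a covariate, the log2 fold change of *Ctsc* was 0.079 in place of -0.39, that of *Ctss* was 0.53 in place of 0.24, that of *Gpnmb* was 0.68 and that of *Ctsd* was 0.25, none with an edgeR adjusted p below 0.490. *Ctss*, named here after its values were seen, encodes a protease of antigen-presenting cells and had 102, 109.8 and 97.9 CPM in the controls and 139, 121 and 105 CPM in the LysM-Cre mice. The median over the 44 genes in that fit was 0.10, and 0.014% of all genes tested were called in it. The score was 5.76 to 5.84 in the controls and 5.15 to 5.56 in the LysM-Cre mice, without overlap, so the genotype and the macrophage level cannot be told apart in these libraries.

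The 7 osteoclast markers summed to 108 to 119 CPM, nearly all of it from *Nfatc1*, a factor that other cell types also express, at 101 to 109.6 CPM. *Mmp9* reached 13.7 CPM in control 1. The osteoclast genes *Calcr*, *Oscar*, *Dcstamp* and *Ocstamp* were at most 1.30 CPM in any library, and 4 of the 7 osteoclast markers and 4 of the 8 neutrophil markers had too few reads to test. The summed neutrophil level was 16.5, 37.6 and 10.4 CPM in the controls and 33.9, 33.7 and 11.7 CPM in the LysM-Cre mice. The 5 pigment cell markers together had between 9.21 and 13.5 CPM. The 12 tendon fibroblast markers summed to 118120 to 138190 CPM, most of it from the collagen genes *Col1a1*, *Col1a2* and *Col3a1*. The control means of these collagen genes were 49371, 43262 and 28435 CPM, and those of *Tnmd*, *Scx* and *Mkx* were 1674, 106 and 54.8 CPM. Of the 12, edgeR called 1, *Dcn*, for the matrix protein decorin, which fell by 0.45 on the log2 scale (edgeR adjusted p = 0.0301). DESeq2 called 2 of the 12 (16.7%, beside 4.68% of the genes it could test), *Dcn* (adjusted p = 1.37e-10) and *Col3a1* (adjusted p = 0.0183). In edgeR, *Dcn* was also called with other scalings and count filters and without LysM-Cre mouse 2 (adjusted p = 0.038). *Dcn* was not called when control 1, 2 or 3 or LysM-Cre mouse 1 or 3 was left out, at edgeR adjusted p between 0.066 and 0.15. Nor was it called with the muscle or the macrophage score (0.081 and 0.56) or in the blocked fit (0.061). Its log2 fold change was -0.42 with the muscle score, -0.34 with the macrophage score, -0.45 in the blocked fit and -0.47 to -0.42 with a mouse left out. The 5 adipocyte markers had log2 fold changes below 0, with a median of -1.27 and 0 called in edgeR. At an unadjusted p under 0.05, edgeR gave 2 of the 5 as lower (40%, beside 8.55% of all genes tested). DESeq2 called 1 of the 5 (20%, beside 4.68% of the genes it could test). For 2 of the 5, the LysM-Cre mice lay below all controls (40%, beside 11.4% of all genes tested). These markers summed to 217, 187 and 319 CPM in the controls and 167, 60.3 and 213 CPM in the LysM-Cre mice.

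Levels between genes are compared per transcript length, as the TPM values that the authors deposited, in which reads are scaled to transcript length and library total, summed over the transcripts of each gene. In the controls the most abundant member was *Ctsb*, for the cysteine protease cathepsin B, at 1409 ± 27.3 TPM (SD, n = 3), and *Psap* followed at 1161 ± 72.6 TPM. Both ranges were clear of the next gene. *Ctsd* at 731 ± 36.1 TPM and *Gabarap* at 698 ± 24.9 TPM came next, and their ranges over the controls overlapped. The same held for *Lamp1* at 607 TPM and *Ctsl*, for cathepsin L, at 597 TPM. Lumenal and membrane genes and 1 ATG8 gene thus filled the first 8 places, down to *Lamp2* at 288 ± 6.16 TPM. *Npc2* and *Lipa* were at 161 and 60.5 TPM, and *Sqstm1* and *Map1lc3b* at 235 and 129 TPM.

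The genes that regulate the pathway were far lower. *Ulk1* was at 24.8 ± 1.07 TPM and *Tfeb* at 24.4 ± 1.41 TPM, values that did not differ beyond their spread from those of *Atg13* and *Atg12*. *Tfe3* was at 38.8 ± 0.889 TPM and *Mitf*, the lowest of all 44, at 5.89 ± 0.458 TPM. The 3 MiT/TFE genes thus had the order *Tfe3* over *Tfeb* over *Mitf*, with ranges over the controls that were apart. *Gla* was the lowest hydrolase gene, at 7.64 ± 0.218 TPM.

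**Figure D4:**
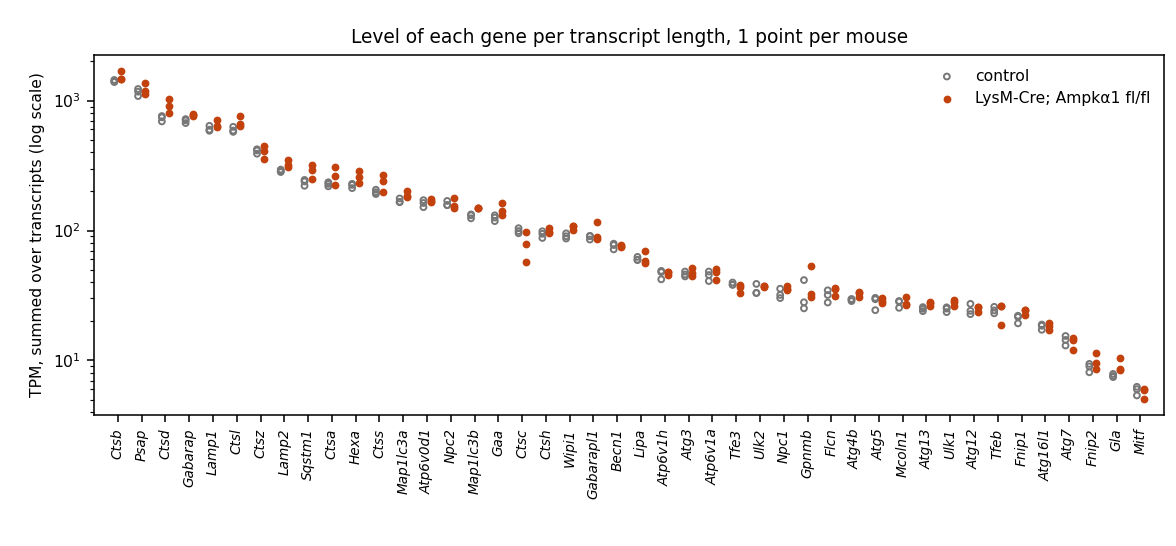
TPM of each of the 44 genes, summed over transcripts, on a log scale, with 1 point per mouse and genes ordered by their control mean; open grey points are controls and filled orange points are LysM-Cre mice. Levels fall from 1409 TPM for Ctsb to 5.89 TPM for Mitf, a span far wider than the distance between the groups for any gene.

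Transcript use was compared for the 16 members with at least 2 transcript entries in use. For *Gabarap*, 1 of the 16, the entries are the 2 copies of the same transcript, each at 50% in every library. Its share could not differ, although it counts in the adjustment. *Atg3* was the gene for which the groups did not overlap: its main transcript took 89.7%, 87.7% and 84.9% of the reads in the controls and 93.8%, 92.9% and 90.5% in the LysM-Cre mice (exact permutation p = 0.1, the smallest that 3 mice against 3 allow, 0.985 after adjustment over 16 genes). For *Lamp2*, whose isoforms differ in their membrane tail, the main transcript took 83.4%, 85.5% and 83.4% in the controls and 80.4%, 83.7% and 84.7% in the LysM-Cre mice, which overlapped.

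A wider list of 127 autophagy, lysosome, V-ATPase, mTORC1 and enzyme-sorting genes that are not among the 44 held 1 called gene (0.787%, beside 0.898% of all genes tested). *Bnip3*, which encodes a mitochondrial receptor for LC3 that hypoxia induces, had 42.01, 42.3 and 43.1 CPM in the controls and 62.6, 58.8 and 63.7 CPM in the LysM-Cre mice. The groups were far apart beside their spread, and *Bnip3* rose by a log2 fold change of 0.54 (SE 0.053, edgeR adjusted p = 0.0134). In the blocked fit it was not called, at an adjusted p of 0.0525, and with the muscle score its adjusted p was 0.0416 (edgeR). It was no longer called with the macrophage score, at a log2 fold change of 0.47 (edgeR adjusted p = 0.397). It was also not called without control 1, 2 or 3 (edgeR adjusted p = 0.097, 0.099 and 0.051) or without LysM-Cre mouse 1 (0.085), while its log2 fold change kept between 0.51 and 0.57 with any 1 mouse left out. In DESeq2, 7 of the 127 were called (5.51%, beside 4.68% of all genes it could test), all higher, among them *Bnip3*, the LC3 protease gene *Atg4a*, the lysosomal transporter gene *Slc15a3*, the collagen-degrading cathepsin gene *Ctsk*, and the membrane protein genes *Atg9a* and *Scarb2*.

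Over the wider list, 91 of 127 log2 fold changes were above 0 and the median was 0.052. The LysM-Cre mice were all above the controls for 22 genes (17.3%, beside 8.94% of all genes tested) and all below for 9 (7.09%, beside 11.4%). The hydrolases of the wider list had 8 genes higher (22.2%, beside 5.97% of all genes tested) and 3 lower (8.33%, beside 8.55%) at an unadjusted p under 0.05 in edgeR, out of 36. Of 18 further lysosomal membrane genes 15 were above 0, with a median of 0.16. For 8 of them the LysM-Cre mice were all above the controls (44.4%, beside 8.94% of all genes tested), and for 3 all below (16.7%, beside 11.4%). DESeq2 called 3 of the 18 (16.7%, beside 4.68%). Of 16 further V-ATPase genes 14 were above 0, with a median of 0.055. Of 20 mTORC1, Rag and Ragulator genes 11 were above 0, with 0 at an unadjusted p under 0.05 in edgeR. *Rragd*, for a Rag GTPase that recruits mTORC1, had the largest value of this list. Its log2 fold change was 1.30 (SE 0.66, edgeR adjusted p = 0.432), and 0.076 with the muscle score as a covariate. *Rragd* was named after its values were seen.

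**Figure D5:**
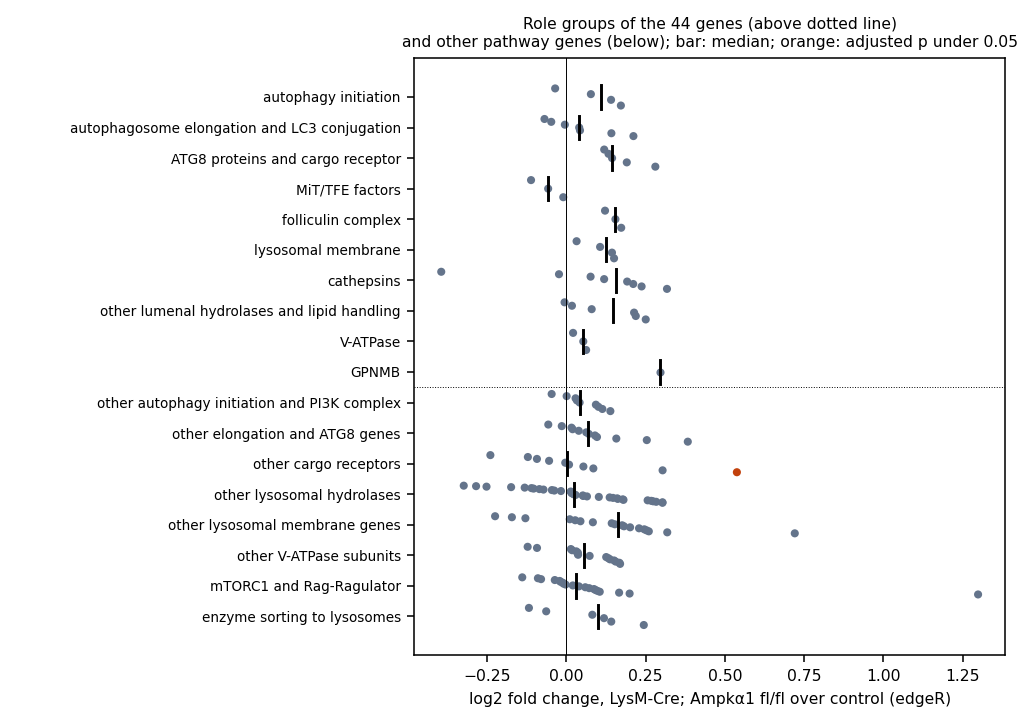
The edgeR log2 fold change of each gene, LysM-Cre; Ampkα1 fl/fl over control, by role group, with the 44 genes above the dotted line and the 127 other pathway genes below it; the black bar is the median of a group and the orange point is Bnip3, the gene with an adjusted p under 0.05. The medians lie between -0.057 for the MiT/TFE factors and 0.30 for Gpnmb alone, and most lie between 0 and 0.2.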

How the data were processed

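RNA was sequenced on the BGISEQ platform from 3 control and 3 *LysM-Cre; Ampkα1 fl/fl* mice, 1 library a mouse. The authors deposited, for each of 65053 RefSeq transcripts, an estimated count (not normalized) and a TPM value (scaled to transcript length and library total by the authors). The submitters' processing notes list the genome build GRCm38.p6, and the aligner and counting tool are not given in the sources used here. Reads shared by similar transcripts are therefore split by an unknown method. Other scalings of the same samples (12 columns) and group averages (8 columns) were left out.

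Estimated counts were summed per gene and rounded, which gave 18099 genes, of which 18049 matched a symbol in RefSeq. Totals were 18076805 to 19479887 reads, and the precision of a value is set by the 3 mice a group. Groups were compared in R 4.3.3 with edgeR 4.0.16 (TMM, filterByExpr, quasi-likelihood F test, Benjamini-Hochberg adjustment, threshold 0.05), tested on simulated data. Exact permutation tests used log2(CPM + 0.5), and scores are means of log2 CPM with a prior count of 2. Transcript shares were computed for genes with a mean of at least 50 reads and a second transcript with at least 10% of them. Alternatives were DESeq2 1.42.0, RLE and upper-quartile scaling, other filters, the replicate block, marker scores as covariates and leaving out each mouse.

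Per-mouse values are given for members with an unadjusted p under 0.05, the highest and lowest member of each role group, and *Ulk1*, *Tfeb*, *Tfe3*, *Mitf*, *Sqstm1*, *Map1lc3b*, *Lamp1*, *Ctsd* and *Gpnmb*. Of the wider list, genes called in the main edgeR fit are named, and not every gene that DESeq2 called. The members, lists and rules were chosen with earlier results of these data known. The labels give both groups the replicate numbers 1 to 3, and no source used here ties them to litters or days. Same-numbered libraries correlated in their deviations from the group means at 0.18, 0.12 and 0.31. Control 1 correlated more with LysM-Cre mouse 2 (0.50), and control 2 at 0.13 with mouse 3. The reported values come from the fit without pairs, and the blocked fit is given beside a call that it changes.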

Additional observations from a re-analysis of the deposited data

How the results depend on the processing

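The number of genes called over all genes tested was 128 with edgeR, 685 with DESeq2, 47 with the replicate block, 74 with the muscle score, 2 with the macrophage score and 8 to 276 when a mouse was left out. It was 10, 8 and 24 without control 1, 2 and 3, and 12, 276 and 60 without *LysM-Cre; Ampkα1 fl/fl* mouse 1, 2 and 3. Of the 44 members, 0 were called with edgeR, 2 with DESeq2 and 0 to 1 when a mouse was left out, and of the 127 other pathway genes 1 was called with edgeR, 7 with DESeq2, 0 with the replicate block, 0 with the macrophage score and 0 to 4 when a mouse was left out. Apart from *Bnip3*, the block changed no call among these genes. The members' median stayed above 0 throughout, from 0.048 to 0.16 when a mouse was left out.

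Apart from leaving out a mouse, 333 of 352 fold changes of single members kept their direction and side of the threshold, 2 passed it and 17 changed sign. The last were all at most 0.12 in size after the change, from at most 0.39 before it (*Ctsc*), and the cause was not tested. The log2 fold change was 0.0026 for *Atg16l1* and 0.0013 for *Npc2* with DESeq2, and 0.0010 for *Atg16l1* with RLE scaling. With the macrophage score it was 0.057 for *Atg7*, -0.099 for *Atp6v1a*, -2.2e-05 for *Atp6v1h*, 0.079 for *Ctsc*, -0.065 for *Flcn*, 0.12 for *Mitf*, 0.015 for *Npc2* and *Tfe3*, and -0.0073 for *Ulk2*. With the muscle score it was -0.065 for *Atp6v1a*, -0.0071 for *Ctsh*, -0.0014 for *Flcn*, -0.051 for *Mcoln1* and -0.018 for *Ulk2*.

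Leaving out a mouse changed the sign of 23 of 264 values, in 14 genes. Their ranges were -0.086 to 0.021 (*Atg12*), -0.054 to 0.043 (*Atg16l1*), -0.042 to 0.11 (*Atg5*), -0.0089 to 0.15 (*Atp6v1a*), -0.022 to 0.051 (*Atp6v1h*), -0.11 to 0.085 (*Ctsz*), -0.028 to 0.22 (*Gabarapl1*), -0.0067 to 0.57 (*Gpnmb*), -0.089 to 0.080 (*Lipa*), -0.034 to 0.093 (*Mcoln1*), -0.11 to 0.0046 (*Mitf*), -0.097 to 0.069 (*Npc2*), -0.0082 to 0.16 (*Psap*) and -0.10 to 0.15 (*Tfeb*). With 3 mice a group, the 95% intervals of 38 of the 44 members lay within 0.5 of 0 on the log2 scale, and those of the other members reached farther.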
